A study of Homo sapiens with 40 samples.

Results

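OL9-119, an inhibitor of the DNA repair enzyme TDP1, was given to HEK293A cells with and without PARP1, and the question here was whether the transcriptional response to it differed between the genotypes. HEK293A is an adherent human embryonic kidney cell line. Of the 40 libraries of the series, 16 enter this comparison, with 4 libraries in each of 4 groups. The groups were WT cells with DMSO, WT cells with OL9-119, PARP1-KO cells with DMSO and PARP1-KO cells with OL9-119. OL9-119 was used at 5 µM in both genotypes, every one of the 16 cultures received 0.1% DMSO, and exposure lasted 5 to 5.5 h. A further 16 libraries, from cells with topotecan (Tpc) or with Tpc and OL9-119, gave the same comparison on top of Tpc, which was dosed at 100 nM in WT and 50 nM in PARP1-KO cells. The PARP1-KO line is 1 clone made with CRISPR/Cas9, so the knockout and other traits of that clone cannot be told apart. The labels call the replicates biological and the methods call them technical, so p-values here measure the spread between these libraries, which may be technical.

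TDP1 removes TOP1 peptides that stay bound to DNA after a trapped cleavage complex is degraded, and PARP1 binds DNA strand breaks, synthesises poly(ADP-ribose) and helps recruit repair factors, TDP1 among them. The genes that dominated the difference between the genotypes belong mostly to the integrated stress response. In that pathway, kinases that sense amino acid shortage, unfolded protein in the endoplasmic reticulum, double-stranded RNA, or haem shortage and mitochondrial stress phosphorylate the translation factor eIF2α. General translation then falls while the transcription factor ATF4 is made, and ATF4, often together with a C/EBP partner, switches on genes for amino acid supply, redox balance and growth arrest. The other group, the cytosolic heat shock genes, codes for chaperones that fold and refold proteins and is driven mainly by HSF1.

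Of the 28922 genes tested, 29 had a response to OL9-119 that differed between the genotypes (0.1%), 23 with a lower value in PARP1-KO cells (0.0795%) and 6 with a higher one (0.0207%; edgeR quasi-likelihood test, Benjamini-Hochberg adjusted p threshold of 0.01). The value tested for each gene, called the genotype difference here, was the log2 fold change of OL9-119 against DMSO in PARP1-KO cells minus that in WT cells. Of the 23 genes with a lower value, 22 are described here, namely CHAC1, SLC7A11, CEBPB, STC2, GDF15, DDIT4, VEGFA, C11orf96, DDIT3, TRIB3, ULBP1, ARRDC3, SLC7A5, TSC22D3, SLC7A1, CEBPG, ATF3, CARS1, MTHFD2, SESN2, PSAT1 and GADD45B, and 17 of them are on a list of 52 ATF4 target genes. The 6 with a higher value were HSPA1B, HSPA8, TXNIP, DNAJB1, MT-RNR2 and DNAJA1. Each of the 23 rose with OL9-119 in WT cells and each of the 6 fell there, and 0 of the 29 passed the test within PARP1-KO cells. The WT and PARP1-KO responses of these genes are parts of the tested value, so they are given below as a description. All gene lists used here were written by hand with earlier results of these data known, so counts over a list are also a description.

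ATF4 and C/EBP proteins bind a composite element whose core is TGATGCA, read on either strand, and HSF1 binds alternating GAA and TTC units. Both were searched in the RefSeq GRCh38.p14 windows of 250 bases before to 50 after each gene's start, because the members fall so largely into these groups. The core was present in 4 of the 19 genes with a lower value that had a window (21.1%), in 13 of 42 genes of the ATF4 list (31%) and in 395 of all 15415 tested genes with a window (2.56%), and in 0 of 5 genes with a higher value. A run of 3 alternating units with 2 bases between neighbours was present in 2 of the 5 genes with a higher value (40%), in 7 of 21 genes of the heat shock list (33.3%) and in 83 of the 15415 genes (0.538%), and in 0 of the 19. No window on the ATF4 list held the heat shock run and none on the heat shock list held the core. C11orf96, MT-RNR2, SLC7A11 and VEGFA were among the genes with no window. Bases before or after the start are counted from the RefSeq start, which for CHAC1 lies within the GENCODE gene span given with its values. A match is a description of letters and not a measured binding site. The sequences around the matches of the called genes follow on each gene's own strand, with the match in capitals.
CHAC1, chr15:40953238-40953294, plus strand, match beginning 208 bases before the start: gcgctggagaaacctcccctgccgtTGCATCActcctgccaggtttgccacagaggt
CEBPG, chr19:33374046-33374102, plus strand, match beginning 42 bases before the start: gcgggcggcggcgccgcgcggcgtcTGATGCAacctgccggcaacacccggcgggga
ULBP1, chr6:149963693-149963732, plus strand, match beginning 242 bases before the start: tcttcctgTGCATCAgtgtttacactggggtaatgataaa
CARS1, chr11:3057418-3057449, minus strand, match beginning 1 base before the start: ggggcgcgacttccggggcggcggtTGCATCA
HSPA8, chr11:123062154-123062216, minus strand, match beginning 55 bases before the start: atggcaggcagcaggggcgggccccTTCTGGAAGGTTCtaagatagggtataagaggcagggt
HSPA8, chr11:123062329-123062386, minus strand, match beginning 230 bases before the start: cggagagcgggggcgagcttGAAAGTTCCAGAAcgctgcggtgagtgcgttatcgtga
DNAJA1, chr9:33025251-33025288, plus strand, match beginning 3 bases after the start: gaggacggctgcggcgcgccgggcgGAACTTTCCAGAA

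The WT libraries of the comparison held between 6354734 and 14292607 counts and the PARP1-KO libraries between 8260515 and 18458588. After thinning to a common depth, 15494 to 19774 genes were detected in WT cells with DMSO, 16803 to 20634 in WT cells with OL9-119 and 19558 to 21552 in the PARP1-KO libraries of the comparison, and the part of this in the results was not tested beyond a fit with the number of detected genes as covariate. Replicates spread more in WT cells with DMSO (median SD of 0.307 on the log2 scale over 9231 genes) than in WT cells with OL9-119 (0.176) or in PARP1-KO cells with DMSO (0.151) or OL9-119 (0.139). PARP1, the knocked-out gene, was at 39.4 ± 6.73 CPM in PARP1-KO against 818 ± 54.2 CPM in WT cells with DMSO (SD, n = 4 each, 4.82%; exact permutation test over 70 divisions, p = 0.0286, the smallest this design allows), and at 37.3 ± 3.71 against 783 ± 21.0 CPM with OL9-119 (4.77%, exact p = 0.0286). KRT8, an epithelial keratin expressed by this line, was at 532 to 1032 CPM over the 16 libraries, while the kidney lineage genes PAX8 (0 to 1.88 CPM) and PAX2 (0.0979 to 7.31 CPM) were low, and the leukocyte marker PTPRC was at 0 to 0.218 CPM. Of 11 markers of other cell types, COL1A1 had the highest level, at 9.93 to 43.0 CPM.

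In 2 libraries, MT-ND5 and a large share of other genes went against the labels. In the library labelled PARP1-KO with DMSO replicate 3, the mitochondrial transcript MT-ND5 was at 712 CPM, against 1659 to 2079 CPM in the other 3 libraries of its group and 438 to 672 CPM with OL9-119. In the library labelled PARP1-KO with Tpc and OL9-119 replicate 3 it was at 2139 CPM, against 548 to 711 CPM in the rest of its group and 1827 to 2380 CPM with Tpc alone. Of the 334 genes called in WT cells, 55.4% in the former and 70.4% in the latter lay nearer to the mean of the other treatment than to that of the libraries sharing the label, against 21% to 29.9% and 23.4% to 32.3% in the rest of their groups. A high share was not particular to them, since it was 57.2% in PARP1-KO with Tpc replicate 2 and 46.7% in PARP1-KO with OL9-119 replicate 3, although MT-ND5 in these was at 1827 and 659 CPM, within the range of their groups. No library was moved to another group. The counts, and the genes and lists the results turn on, are instead given also with both libraries left out, a choice made after the data were seen. Without the 2, 27 of 28705 genes differed between the genotypes (0.0941%), all 27 were among the 29, and the 2 that no longer passed were ULBP1 and GADD45B, with all 29 at an unadjusted p of at most 1.82e-05. All 29 are among the 334 genes by which the 2 libraries were set against their labels, so these p-values are no separate support. The difference without the 2 was -2.27 for SLC7A11, -1.94 for CEBPB, -1.87 for GDF15, -1.78 for STC2, -1.55 for VEGFA and 1.29 for HSPA8, and these genes are given with every library below.

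OL9-119 changed 334 genes in WT cells (1.15%), 141 upward (0.488%) and 193 downward (0.667%), and 1 gene in PARP1-KO cells (0.00346%), which was MT-ND5. At an unadjusted p under 0.05, the numbers were 4930 for WT and 671 for PARP1-KO cells. Without the 2 libraries, 350 genes passed in WT cells (1.22%) and 1 in PARP1-KO cells (0.00348%), where 672 had an unadjusted p under 0.05. The counts alone do not test a difference between the genotypes, which the 29 genes above do. Of the 141 genes that rose in WT cells, 86.5% had a positive fold change in PARP1-KO cells, and the median log2 value was 0.83 with PARP1 and 0.11 without it. Of the 193 that fell, 94.8% had a negative one, with medians of -0.70 and -0.15. Over all genes tested the sign was shared by 50.9%, and the WT and PARP1-KO contrasts share no library. Without the 2 libraries, the sign was shared by 85.8% and 91.7% of these genes, with PARP1-KO medians of 0.15 and -0.17. The PARP1-KO value was the smaller in size for all 334 genes with every library and for all but 1 without the 2. These genes had passed the test in WT cells, so a smaller size in PARP1-KO cells is no separate result.

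**Figure D1:**
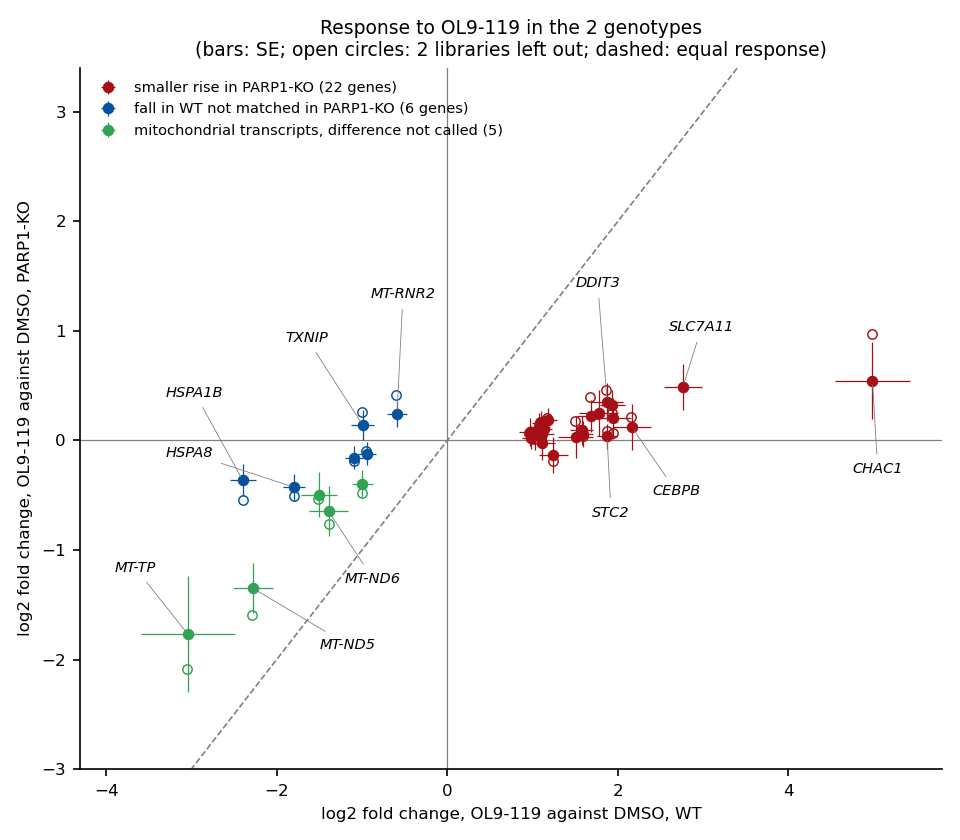
Log2 fold change of OL9-119 against DMSO in WT (horizontal) and PARP1-KO cells (vertical) for 28 of the 29 genes whose response differed between the genotypes and for 5 mitochondrial transcripts that did not pass that test, with bars for the SE, open circles for the PARP1-KO value without the 2 libraries that went against their labels and a dashed line for equal responses. The 22 genes in red lie between 0.97 and 4.98 in WT and between -0.13 and 0.54 in PARP1-KO cells, while MT-ND5 and MT-TP lie well below 0 in both.

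CHAC1 (ENSG00000128965; hg38 chromosome 15, 40952962 to 40956512, plus strand), which degrades glutathione, had the lowest genotype difference among the 29. It was counted at 2.70, 0.738, 0.12 and 1.88 CPM in the 4 WT libraries with DMSO and at 53.8, 41.4, 47.5 and 39.6 CPM with OL9-119. In PARP1-KO cells it was at 8.72, 9.37, 25.4 and 13.2 CPM with DMSO, where 25.4 belongs to the library that went against its label, and at 16.8, 23.3, 20.1 and 22.1 CPM with OL9-119. All WT libraries with OL9-119 thus stood above all others, and PARP1-KO cells were above WT cells with DMSO. The log2 fold change was 4.98 ± 0.44 (SE) in WT and 0.54 ± 0.35 in PARP1-KO cells, and the genotype difference was -4.44 (95% interval -5.56 to -3.32, edgeR adjusted p = 4.28e-07). Without the 2 libraries the PARP1-KO fold change was 0.97 and the difference -4.00. The WT level with DMSO rested on 38, 7, 1 and 12 counts, so the size of the WT rise is imprecise. With untreated cells in place of DMSO as comparator, CHAC1 did not pass for the difference.

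SLC7A11 (ENSG00000151012; chromosome 4, 138164097 to 138242349, minus strand), the cystine carrier of the plasma membrane that supplies glutathione synthesis, followed with a difference of -2.28 (interval -2.88 to -1.68, edgeR adjusted p = 9.69e-07). Its level went from 13.5, 10.7, 7.91 and 17.8 CPM to 80.0, 55.9, 97.7 and 103.7 CPM in WT cells, and from 24.0, 26.6, 26.04 and 25.9 CPM to 37.9, 30.5, 39.2 and 36.5 CPM in PARP1-KO cells. It was among the few genes whose libraries did not overlap in PARP1-KO cells either, with a log2 fold change of 0.49 there (unadjusted p = 0.0224, edgeR adjusted p = 1) against 2.76 in WT cells. SLC7A5, an exchanger of large neutral amino acids, went from between 65.3 and 123.7 CPM to between 175 and 245 CPM in WT libraries, while PARP1-KO libraries were at 140 to 167 CPM with DMSO and 125.3 to 164 CPM with OL9-119. SLC7A1, a cationic amino acid carrier, had a difference of -1.05, with PARP1-KO libraries at 209.6 to 239 CPM with DMSO and 231 to 246 CPM with OL9-119. The 209.6 CPM belongs to the library that went against its label. All 8 amino acid carriers on the ATF4 list had a negative difference, with a median of -0.88, and 3 passed the test.

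Of the 8 genes for transcription factors and a pseudokinase on the ATF4 list, 5 passed with a lower value and the median difference was -1.19. CEBPB, a C/EBP partner of ATF4, was at 10.8 to 27.4 CPM in WT cells with DMSO and at 83.3 to 91.0 CPM with OL9-119. In PARP1-KO cells it was at 56.8 to 77.1 CPM with DMSO and at 60.2 to 88.7 CPM with OL9-119, so those groups overlapped, and the difference was -2.04 (edgeR adjusted p = 3.1e-05). CEBPB did not pass with untreated cells as comparator. DDIT3, which codes for the pro-apoptotic factor CHOP, rose from between 18.8 and 46.0 CPM to between 101.01 and 155 CPM in WT libraries. PARP1-KO libraries had 95.7, 88.3, 129 and 102.2 CPM with DMSO and 125.3, 135, 138 and 130 CPM with OL9-119, with the library that went against its label at 129 CPM. Its PARP1-KO fold change was 0.35 on the log2 scale with every library and 0.46 without the 2, against 1.87 in WT cells. TRIB3, a pseudokinase that dampens ATF4 and CHOP activity, had a difference of -1.48, from 36.8 to 55.5 CPM with DMSO and 123.8 to 158 CPM with OL9-119 in WT cells and overlapping values of 110.7 to 114.9 CPM and 111.95 to 128.2 CPM in PARP1-KO cells. CEBPG, a further C/EBP partner, had a difference of -1.03. ATF3, a stress-induced repressor, had one of -0.99, and its PARP1-KO libraries (318 to 357 CPM with DMSO, 352 to 412 CPM with OL9-119) all lay above WT cells with OL9-119 (188 to 237 CPM). DDIT3 shares exons with a readthrough gene and overlaps MARS1 on the opposite strand, and which strand column was counted is not stated.

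The stress effectors on the list gave 6 genes with a lower value out of 11 and a median difference of -1.61. STC2 (ENSG00000113739; chromosome 5, 173314723 to 173328447, minus strand), a secreted glycoprotein, had the smallest adjusted p of all genes (2.43e-11 by edgeR). It was at 39.3, 54.9, 41.8 and 51.2 CPM in WT cells with DMSO and at 181, 158, 166 and 179 CPM with OL9-119. In PARP1-KO cells it was at 136, 132, 155 and 131 CPM with DMSO and at 138, 148, 135 and 146 CPM with OL9-119. WT cells with OL9-119 thus exceeded every other library, while the PARP1-KO groups overlapped, with a fold change of 0.04 ± 0.12 on the log2 scale. DDIT4 and SESN2, both inhibitors of mTORC1 signalling, had differences of -1.61 and -0.95. GDF15, a secreted stress hormone, had one of -1.75, with 15.2 to 22.8 CPM and 59.0 to 79.7 CPM in WT cells and 66.8 to 102.97 CPM and 81.4 to 124.97 CPM in PARP1-KO cells. The 66.8 CPM belongs to the library that went against its label, below the 97.3 to 102.97 CPM of the others with DMSO and away from the OL9-119 values. The rise of mean GDF15 in PARP1-KO cells was 13.6 CPM with every library and 4.92 CPM without the 2. VEGFA, the angiogenic factor, had a difference of -1.53. VEGFA was at 34.8 to 51.8 CPM and 113 to 140 CPM in WT cells, and at 163 to 188 CPM and 172 to 190 CPM in PARP1-KO cells, which were thus above WT cells in either state.

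Fewer of the enzymes on the list passed. Of 12 genes for amino acid and folate-dependent synthesis, 2 passed, PSAT1 of serine synthesis at -0.93 and MTHFD2 of mitochondrial folate metabolism at -0.96, and the median was -0.72. PSAT1 libraries did not overlap in PARP1-KO cells (157 to 168 CPM with DMSO, 175 to 189 CPM with OL9-119), although the change there was small beside that of WT cells (92.2 to 101.3 CPM and 195 to 216 CPM). Of 13 genes for aminoacyl-tRNA synthetases and tRNA export, CARS1 alone passed, at -0.98, with a median of -0.37. CTH, which makes cysteine from cystathionine, had a value of -1.80 (edgeR adjusted p = 0.0119) and SLC6A9, a glycine carrier, one of -2.50 (adjusted p = 0.0127), and neither passed. ASNS, the asparagine synthetase, could not be assessed well, since its exons overlap another gene on the same strand (-0.30 ± 0.87). Over the whole list, 49 of 52 genes had a negative difference, against 16249 of the 28922 genes tested, and 40 had an unadjusted p under 0.05, against 2421. As the list was written with earlier results of these data known, these counts are no separate support. The median was -0.82 against -0.09 for all genes, and the median response was 1.01 with PARP1 present and 0.10 in the knockout. Of the 52, 38 rose in WT cells (0.488% of all genes) and 0 passed the test in PARP1-KO cells. Without the 2 libraries, 17 genes again had a lower value and the medians were -0.80 for the difference and 0.11 for PARP1-KO cells.

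ATF4 itself had a difference of -0.38 (95% interval -0.77 to 0.00, edgeR adjusted p = 0.595), with a log2 fold change of 0.46 in WT cells (adjusted p = 0.0483) that did not pass the threshold and of 0.08 in PARP1-KO cells. ATF4 is controlled mainly at translation, which these libraries did not measure. PPP1R15A, the ATF4-dependent phosphatase subunit that reverses eIF2α phosphorylation, rose by 0.76 on the log2 scale in WT cells, had a fold change of 0.07 in PARP1-KO cells, and its difference of -0.69 did not pass (adjusted p = 0.059). Of the 4 eIF2α kinase genes, EIF2AK1, EIF2AK2, EIF2AK3 and EIF2AK4, none passed for the difference, with values of -0.18, -0.27, 0.10 and -0.35. PARP1, TDP1 and TOP1 had differences of -0.01, 0.10 and 0.14, and 0 of the 35 genes for repair of strand breaks and TOP1 adducts passed in either direction.

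The genes with a lower value that are outside the ATF4 list include 5 described here. TSC22D3, a leucine zipper protein induced by glucocorticoids, was at 44.3 to 68.0 CPM in WT cells with DMSO and at 102.96 to 129 CPM with OL9-119, while PARP1-KO cells were at 28.1 to 33.96 CPM and 24.4 to 34.7 CPM. Both PARP1-KO groups thus lay below all WT libraries, and the fold change there was -0.02 on the log2 scale. ARRDC3, an arrestin-like adaptor, had a difference of -1.46, and its PARP1-KO libraries with DMSO were at 80.5, 70.5, 117.5 and 79.0 CPM, the highest being the library that went against its label, against 86.4 to 109 CPM with OL9-119. ULBP1, a stress-induced ligand of a receptor on natural killer cells, had a difference of -1.47 and C11orf96 one of -1.52. GADD45B, a stress sensor in MAP kinase signalling, had a difference of -0.89. C11orf96 and GADD45B passed in 3 and 2 of the 16 fits that left out 1 library each, while 20 of the 29 genes passed in all 16. TSC22D3, ULBP1, SLC7A1, CARS1, SESN2 and MT-RNR2 were also lost in some of these fits. All of the genes named as lost, and DDIT3, did not pass with only the libraries of the contrast.

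**Figure D2:**
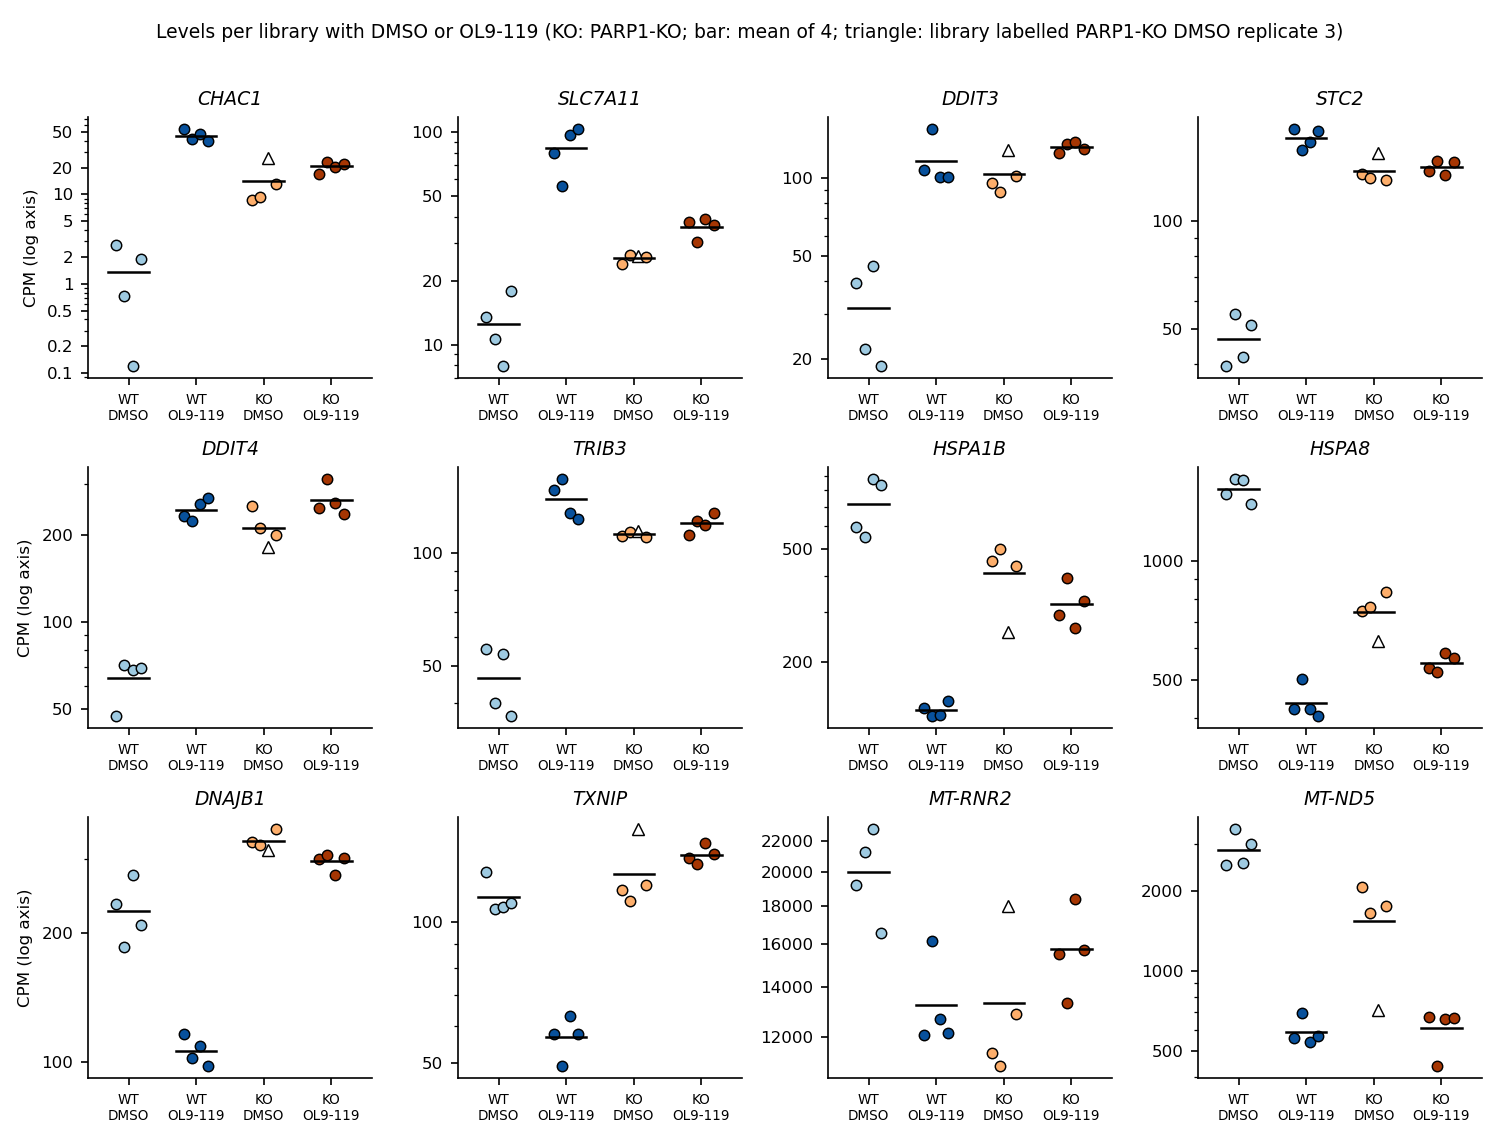
CPM (log axis) of 12 genes in the 16 libraries, with WT in blue, PARP1-KO in orange and brown, a bar for the mean of 4 and a triangle for the library labelled PARP1-KO with DMSO replicate 3. The WT libraries with OL9-119 do not overlap those with DMSO for any gene shown. In PARP1-KO cells this holds only for SLC7A11, HSPA8, DNAJB1 and MT-ND5, and the other genes shown overlap between the treatments.

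In WT cells OL9-119 lowered 9 of 22 cytosolic heat shock genes by the test, and 4 of these, HSPA1B, HSPA8, DNAJB1 and DNAJA1, had a higher value in PARP1-KO cells. HSPA1B (ENSG00000204388; chromosome 6, 31827738 to 31830254, plus strand), an inducible HSP70, went from 594, 550, 876 and 837 CPM to 138, 129, 130 and 146 CPM in WT cells. In PARP1-KO cells it was at 453, 500, 255 and 436 CPM with DMSO, where 255 belongs to the library that went against its label, and at 292, 393, 264 and 328 CPM with OL9-119. Without that library the PARP1-KO groups did not overlap, but the fold change was -0.54 on the log2 scale, against -0.36 with it and -2.40 in WT cells. The difference was 2.03 (interval 1.61 to 2.45, edgeR adjusted p = 1.44e-09) and 1.86 without the 2 libraries. HSPA1B is nearly identical to HSPA1A, for which the counts were sparse (0.69 ± 0.63), and it overlaps a readthrough gene, so its level is uncertain.

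HSPA8, the constitutive HSP70, fell from between 1390 and 1608 CPM to between 404 and 503 CPM in WT libraries. In PARP1-KO cells it was at 626 to 834 CPM with DMSO and at 523 to 583 CPM with OL9-119, so the libraries did not overlap there either, with a log2 fold change of -0.43 (unadjusted p = 0.000935, edgeR adjusted p = 1) against -1.79 in WT cells. The co-chaperone DNAJB1 was at 186 to 274 CPM and 97.4 to 116.2 CPM in WT cells, and at 315 to 351 CPM and 274 to 306 CPM in PARP1-KO cells. DNAJA1, of the same HSP40 class, was at 368 to 448 CPM and 200 to 230 CPM in WT cells, and at 568 to 653 CPM and 519 to 619 CPM in PARP1-KO cells. The differences of DNAJB1 and DNAJA1 were 0.93 and 0.82. Across the 22 heat shock genes tested, 9 fell in WT cells (0.667% of all genes) and 0 passed with PARP1 absent. The median difference was 0.43 against -0.09 for all genes, and 1 gene had a negative difference (16249 of 28922 over all genes). That gene had a difference of -5.09 and a WT log2 fold change of 4.43, and it passed neither test. Leaving out the 2 libraries, 11 fell in WT cells, 2 had a negative difference and the median was 0.38. HSF1 had a difference of -0.29 that did not pass (edgeR adjusted p = 0.733).

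TXNIP, an arrestin-like protein that follows glucose supply and restrains glucose uptake, went from between 107 and 128.3 CPM to between 49.2 and 63.0 CPM in WT cells, without overlap. In PARP1-KO cells it was at 111 to 158 CPM with DMSO and at 133 to 147 CPM with OL9-119, and the difference was 1.13 (edgeR adjusted p = 0.000398), or 1.26 without the 2 libraries. MT-RNR2, the large mitochondrial rRNA, was at 16580 to 22818 CPM and 12091 to 16147 CPM in WT cells, and at 10970 to 17985 CPM and 13338 to 18419 CPM in PARP1-KO cells. The value of 17985 CPM belongs to the library that went against its label, and without the 2 libraries the difference rose from 0.83 (adjusted p = 0.00782) to 1.01 (adjusted p = 5.94e-05). MT-RNR2 is among the genes by which the 2 libraries were set against their labels, so its smaller p-value is no separate support. MT-RNR2 passed in 7 of the 16 fits that left out 1 library each, and the libraries were made from poly(A) RNA, in which an rRNA is counted only as far as it is adenylated or carried over.

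MT-ND5 was the only gene whose fall with OL9-119 passed the test in both genotypes in the main fit. MT-ND5, coding for a subunit of complex I (mitochondrial genome, positions 12337 to 14148), went from 2503, 3424, 2553 and 3001 CPM to 558, 697, 539 and 570 CPM in WT cells, and from 2079, 1659, 712 and 1754 CPM to 672, 438, 659 and 668 CPM in PARP1-KO cells. The OL9-119 libraries of both genotypes lay in the same range. The log2 fold change was -2.28 ± 0.23 in WT and -1.35 ± 0.23 in PARP1-KO cells (edgeR adjusted p = 0.00425), and the difference of 0.93 did not pass (interval 0.30 to 1.56, adjusted p = 0.453). The PARP1-KO fall did not pass with DESeq2, with filterByExpr or with edgeR's legacy option off. It was also lost when any of several single PARP1-KO libraries was left out. Without the 2 libraries the PARP1-KO fold change was -1.60 (edgeR adjusted p = 8.89e-13) and the difference 0.69 (adjusted p = 0.149). The 2 libraries were picked out in part by MT-ND5 itself, so its p-values without them are a description and no separate support. With no filter on low counts the difference of MT-ND5 was 0.95 and passed (adjusted p = 6.09e-08). A missed threshold does not show that the falls were equal, and the interval lies above 0. The 14 heavy-strand mRNAs and rRNAs, MT-ND5 among them, had a median WT response of -0.67. As the strand column counted is not stated, RNA of the opposite strand may be part of the MT-ND5 counts, which was not tested.

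MT-ND6 and MT-TP, both on the light strand, fell in WT cells and did not pass the test in PARP1-KO cells. MT-ND6, the light-strand mRNA, had a WT fold change of -1.39 and a PARP1-KO fold change of -0.65, and the tRNA gene MT-TP had -3.04 and -1.77, with the differences of 0.74 and 1.27 not passing (edgeR adjusted p = 0.524 and 0.681). MT-TQ, a further light-strand tRNA gene, was at 9.07 to 16.3 CPM in WT cells with DMSO and at 0 to 0.307 CPM with OL9-119. In PARP1-KO cells MT-TQ was at 1.43 to 2.56 CPM in 3 libraries with DMSO, at 0 in the library that went against its label, and at 0 to 0.953 CPM with OL9-119. The libraries were made from poly(A) RNA and the strand column counted is not stated, so what the counts of these tRNA genes represent is uncertain. Over the 15 mitochondrially encoded mRNAs and rRNAs, 10 fell in WT cells and 1 (MT-ND5) with PARP1 absent, and the median difference was 0.60 against -0.09 for all genes, with median responses of -0.73 and -0.22. Of the 15, 1 passed for the difference, which was MT-RNR2, but 9 passed without a filter on low counts. The median difference was 0.60 without the 2 libraries and 0.41 with the number of detected genes as covariate. The share of counts on mitochondrial genes was 3.73% to 4.94% in the PARP1-KO and 4.73% to 8.25% in the WT libraries of the comparison.

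Nuclear genes for oxidative phosphorylation gave 13 falls out of 77 in WT cells and 0 without PARP1, with 0 genes passing for the difference and a median of 0.26. The 77 cytosolic ribosomal proteins and the 31 proteasome subunits likewise had 0 genes passing, with medians of 0.25 and 0.21. With the number of detected genes as covariate these medians were 0.12 and 0.13, and without the 2 libraries the medians of the 3 lists were 0.27, 0.22 and 0.22. Of 45 spliceosome genes, 8 fell in WT cells and 0 passed for the difference (median 0.12). NF-kappa B targets (28 genes, median -0.28) and AP-1 and immediate early genes (33 genes, median -0.29) had 4 rises each in WT cells and 0 genes passing for the difference. IER3, an immediate early gene with an anti-apoptotic role, had a value of -0.80 that did not pass (edgeR adjusted p = 0.0155). In the other lists, among them p53 targets, hypoxia targets, the unfolded protein response of the endoplasmic reticulum, NRF2 and glutathione genes, cholesterol synthesis, cell cycle genes and interferon-stimulated genes, TXNIP was the only gene that passed for the difference.

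**Figure D3:**
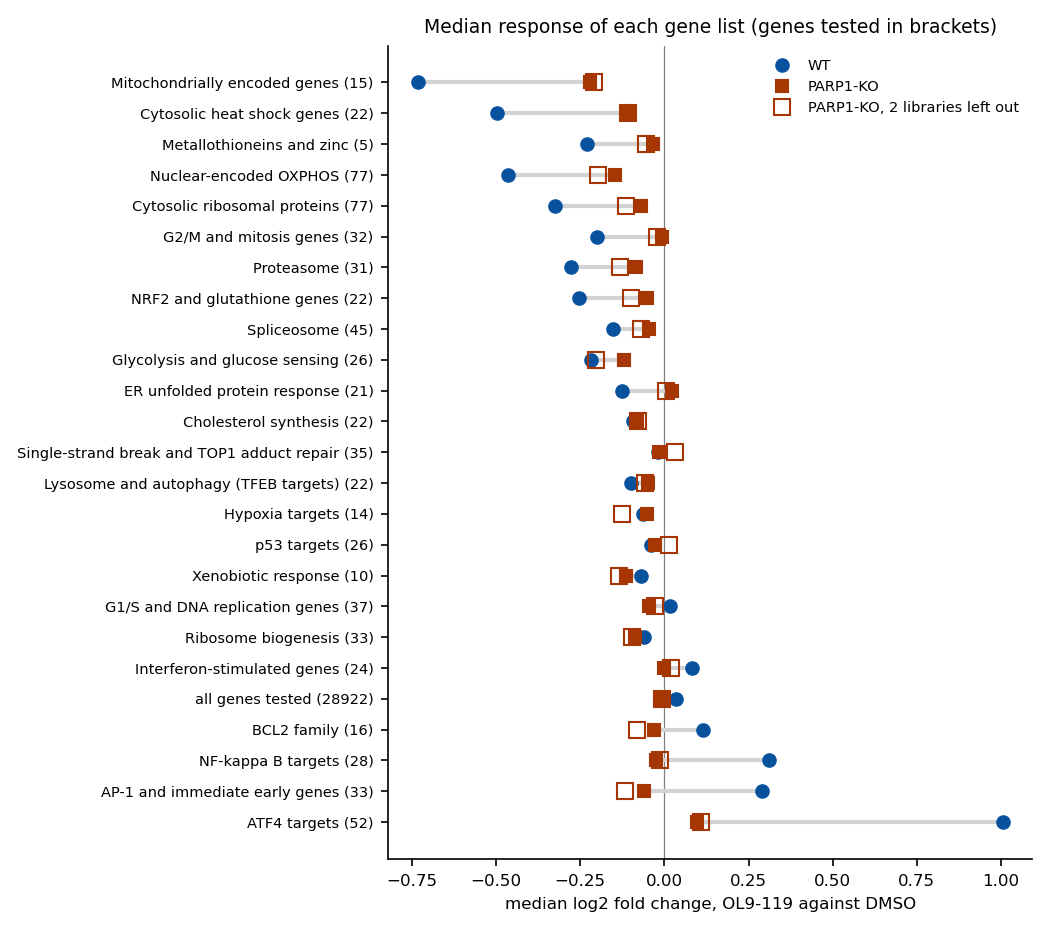
Median log2 fold change of OL9-119 against DMSO of each gene list in WT cells (circles) and PARP1-KO cells (filled squares), with open squares for PARP1-KO cells without the 2 libraries that went against their labels. The ATF4 targets have the widest gap, from 1.01 in WT to 0.10 in PARP1-KO cells, and the mitochondrially encoded genes range from -0.73 to -0.22.

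The genotypes did not start from the same level. In untreated cells, a set of libraries not used in the comparison, 17 of the 23 genes with a lower value were already higher in PARP1-KO than in WT cells by the edgeR test (5.97% of all genes), 1 was lower (5.74%), and the median log2 ratio was 1.08. TSC22D3 was the gene that was lower, by a log2 ratio of -0.88, and GDF15, ARRDC3 and GADD45B had the highest ratios, at 2.39, 2.29 and 2.24. With DMSO the median ratio of PARP1-KO to WT cells was 1.52, and with OL9-119 it was -0.21. The mean of WT cells with OL9-119 exceeded that of PARP1-KO cells with OL9-119 for 14 of the 23 genes and that of PARP1-KO cells with DMSO for 16. GADD45B was at 451 to 492 CPM in PARP1-KO cells with DMSO, against 123.8 to 158 CPM in WT cells with OL9-119, whereas SLC7A11 was at 24.0 to 26.6 CPM against 55.9 to 103.7 CPM.

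The changes in CPM come from the same libraries and genes as the test and are a description. For STC2 the rise of mean CPM was 124.3 CPM in WT and 3.49 CPM in PARP1-KO cells, and for DDIT4 it was 180 and 52.2 CPM. Whether the starting level had a part in the smaller response was not tested. Of the 29 genes, the libraries of OL9-119 and DMSO did not overlap for 29 in WT cells (5.43% of all genes) and for 4 in PARP1-KO cells (2.33%), or for 12 in PARP1-KO cells when the 2 libraries were left out (8.16%).

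**Figure D4:**
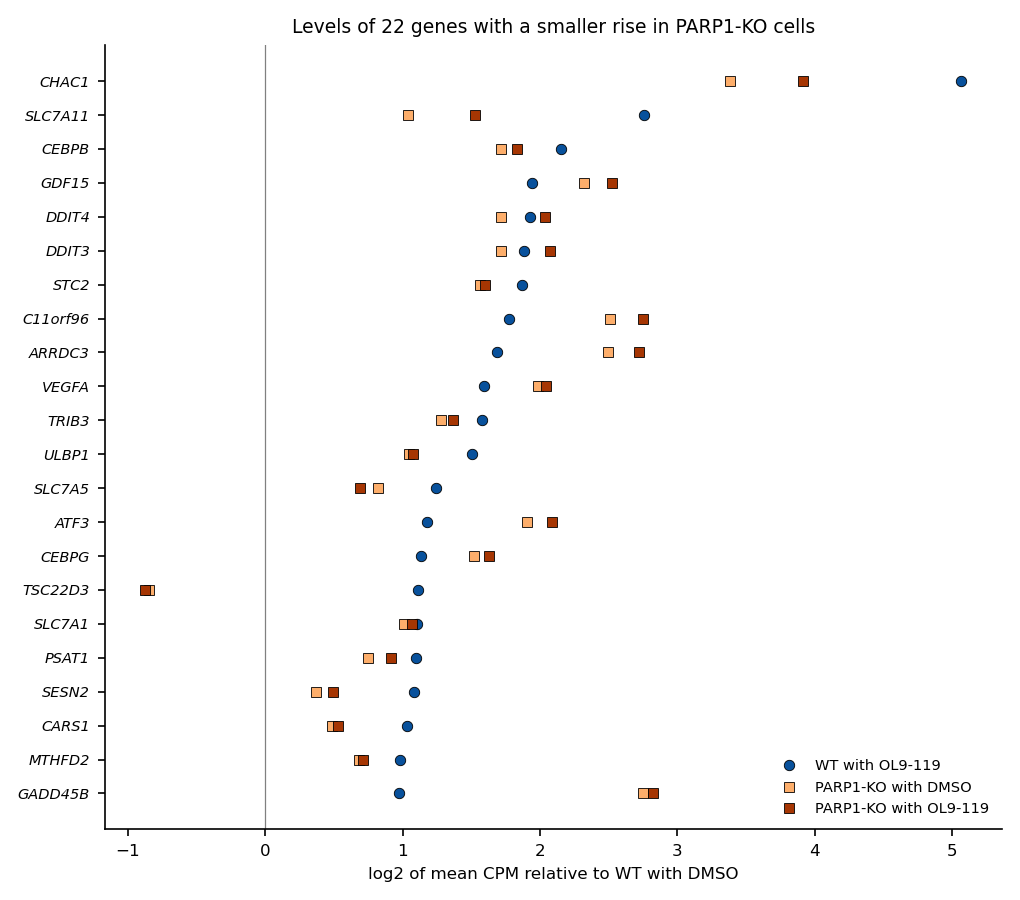
Log2 of the mean CPM relative to WT cells with DMSO (at 0) for 22 of the 23 genes with a smaller rise in PARP1-KO cells, in WT cells with OL9-119 (circles) and in PARP1-KO cells with DMSO (light squares) and OL9-119 (dark squares). Genes for which both PARP1-KO values lie above WT with OL9-119 include GADD45B, ARRDC3, C11orf96, ATF3, VEGFA and GDF15. For CHAC1 and SLC7A11 the PARP1-KO values lie between the WT values, and for TSC22D3 they lie below 0.

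The same genotype difference was taken on top of Tpc, in 16 libraries that the comparison above did not use, although Tpc was given at 100 nM in WT and 50 nM in PARP1-KO cells and the dose and the genotype cannot be told apart there. Only STC2, at -1.05 (edgeR adjusted p = 0.000485), and HSPA1B, at 1.47 (adjusted p = 8.47e-05), passed on top of Tpc (2 of 28922 genes, 0.00692%), and both are among the 29. Of the 29 genes, 27 had the same sign as with DMSO, against 50.7% of all genes, and 19 had an unadjusted p under 0.05, against 7.98% of all genes. The exceptions in sign were ATF3 and C11orf96, both at 0.12. The size was smaller on top of Tpc for all 29, with medians of -0.61 for the 23 genes and 0.72 for the 6. These genes were chosen by their values with DMSO, so a smaller size elsewhere is no separate result.

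Among the 29, the lowest values on top of Tpc were those of SLC7A11 (-1.60), DDIT3 (-1.13), ULBP1 (-1.09) and CHAC1 (-1.09), and the highest after HSPA1B were those of HSPA8 (0.94) and TXNIP (0.82). SLC7A11 was at 36.8 to 82.9 CPM in WT cells with Tpc and OL9-119 and at 17.0 to 25.7 CPM with Tpc, while PARP1-KO cells were at 18.1 to 25.2 CPM and 21.0 to 24.9 CPM. The amino acid carriers SLC7A1 (-0.03) and SLC7A5 (-0.16) had values near 0 there. MT-RNR2 had a value of 0.19 and DNAJA1 one of 0.27. Without the 2 libraries that went against their labels, 27 of the 29 genes again had the same sign (47.6% of all genes), 17 had an unadjusted p under 0.05 (7.9%), and 3 genes passed (0.0105%).

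**Figure D5:**
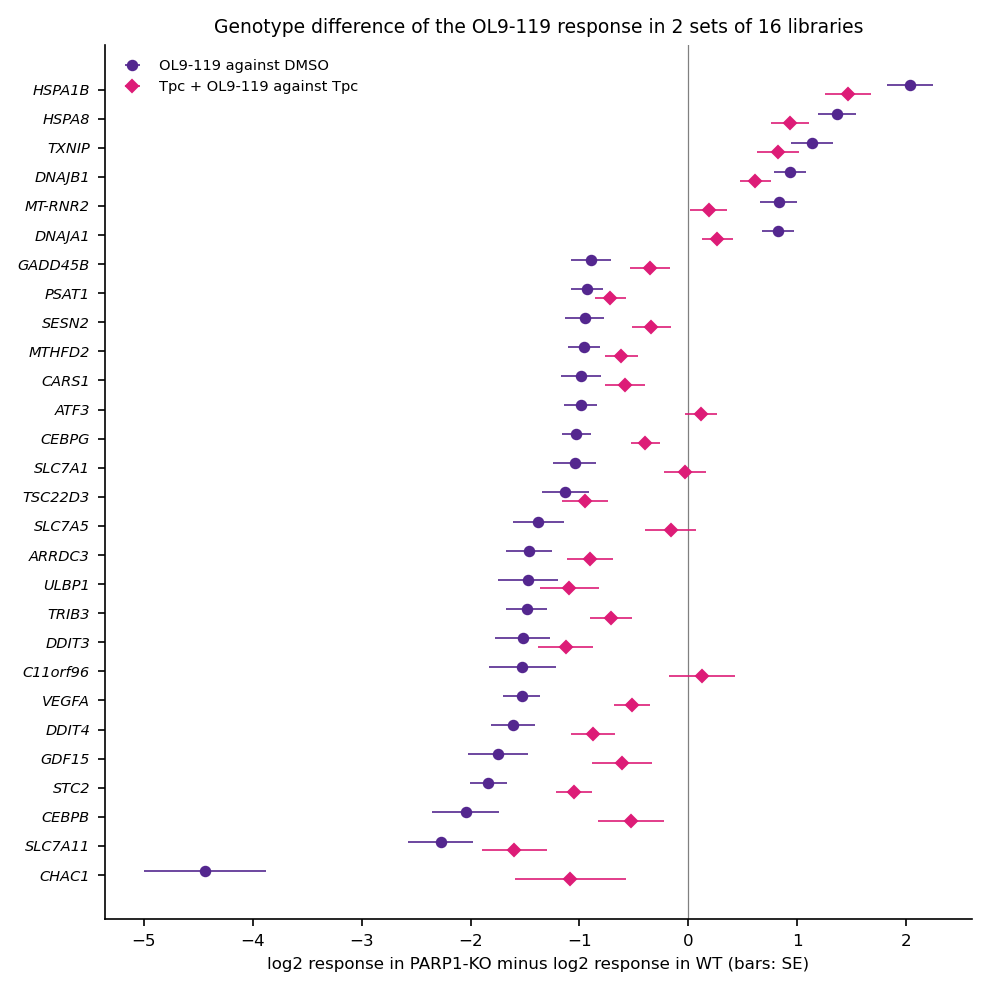
Genotype difference of the OL9-119 response, as the log2 response in PARP1-KO minus that in WT cells, for 28 of the 29 genes with DMSO (circles) and on top of Tpc (diamonds), with bars for the SE. All 6 genes with a higher value lie above 0 in both sets, and of the 22 plotted with a lower value ATF3 and C11orf96 lie above 0 on top of Tpc, each at 0.12.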

How the data were processed

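Poly(A) RNA of HEK293A cells was made into directional libraries and read from both ends, with 100 bp per read. Alignment was done by the authors with STAR 2.7.8 (hg38, Ensembl genes), whose GeneCounts option gave the deposited raw counts, neither normalized nor pooled. The strand column kept is not stated in the sources used here. All 40 columns were matched to samples by name, and no pair of libraries had identical counts.

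A sum of 10 or more counts across the 40 libraries was required of a gene (28922 of 58395). After TMM scaling, all 40 libraries were fitted in edgeR 4.0.16 (R 4.3.3) by quasi-likelihood with its legacy option on, with 10 groups and no covariate, so that the groups share an estimate of spread. P-values were adjusted by the method of Benjamini and Hochberg across the genes tested, with a threshold of 0.01. The SE is the size of the log2 value divided by the square root of F. CPM are relative to the TMM-scaled library size. Positions and overlaps came from GENCODE 44, which held 57754 of the genes. The procedure was tested on simulated data. Every simulated group had the same spread per gene, so the wider spread of WT cells with DMSO was not covered.

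Genes named are PARP1, TDP1 and TOP1, the 10 highest and 10 lowest differences among called genes, the 5 highest and 5 lowest called responses in each genotype (each with a mean of at least 50 counts and no overlap), up to 4 members of each list by unadjusted p, and the other called genes, of which 1 is not reported here. Other pathway genes (ATF4, PPP1R15A, the eIF2α kinases, ASNS, MT-ND6, HSF1) were named after their values were seen. The groups compared, the genes and the 26 lists were chosen with earlier results of these data known. Alternatives were DESeq2 1.42.0, other normalization, filters, covariates, thresholds and comparators, each library left out in turn and, added after the data were seen, the libraries that stood apart left out.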

Additional observations from a re-analysis of the deposited data

Results flagged for a closer look

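For each of 28 genes the test of the difference between the genotypes itself passed. The log2 differences (PARP1-KO minus WT response) were -4.44 for CHAC1, -2.28 for SLC7A11, -2.04 for CEBPB, -1.84 for STC2, -1.75 for GDF15, -1.61 for DDIT4, -1.53 for VEGFA, -1.52 for C11orf96, -1.52 for DDIT3, -1.48 for TRIB3, -1.47 for ULBP1, -1.46 for ARRDC3, -1.38 for SLC7A5, -1.13 for TSC22D3, -1.05 for SLC7A1, -1.03 for CEBPG, -0.99 for ATF3, -0.98 for CARS1, -0.96 for MTHFD2, -0.95 for SESN2, -0.93 for PSAT1 and -0.89 for GADD45B. They were 2.03 for HSPA1B, 1.37 for HSPA8, 1.13 for TXNIP, 0.93 for DNAJB1, 0.83 for MT-RNR2 and 0.82 for DNAJA1.

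In 14 of 136 groups of 4 libraries, 1 library lay far from the other 3 by Dixon's criterion, where chance gives about 1 in 20, or 6.8. WT with DMSO replicate 1 was low for DDIT4 (47.3 CPM) and high for TXNIP (128.3 CPM), replicate 2 was low for CEBPG (126.5 CPM), replicate 3 was low for PARP1 (737 CPM), and replicate 4 was low for SESN2 (58.2 CPM). WT with OL9-119 replicate 2 was high for DDIT3 (155 CPM), MT-RNR2 (16147 CPM) and the mitochondrial share of counts (5.95%), and low for SLC7A1 (185 CPM) and for genes detected after thinning to a common depth (16803, against 19979 to 20634 in the others). WT with OL9-119 replicate 1 had the most counts of its group (14118481). The library labelled PARP1-KO with DMSO replicate 3 was low for GDF15 (66.8 CPM) and SLC7A1 (209.6 CPM). PARP1-KO with OL9-119 replicate 3 was low for CARS1 (87.95 CPM). The part of these libraries in the results was not tested beyond leaving each out.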

How the results depend on the processing

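The count of 29 genes became 52 with DESeq2 or without a filter on low counts, 19 with only the libraries of the contrast, with untreated cells as comparator or at an absolute log2 value of at least 1, and 52 (DESeq2) and 18 (only the libraries of the contrast) with the 2 libraries that went against their labels left out. Without a filter the split was 20 higher and 32 lower, against 6 and 23, and 9 of the 15 mitochondrially encoded mRNAs and rRNAs passed, MT-ND5 among the 9, against 1 with the filter. The tRNA gene MT-TQ also passed without a filter (adjusted p = 0.00471). With the number of detected genes as covariate 39 genes passed, 28 of the 29 among them. The count was 21 (without PARP1-KO with OL9-119 replicate 3) to 34 with 1 library left out. Over these fits the called genes kept sign and threshold in 778 cases and lost the threshold in the rest, with 0 reversals. DESeq2 kept all 29 genes, and untreated cells as comparator kept 18. Among the genes lost with untreated cells were CHAC1, CEBPB, SLC7A5, SLC7A1, CARS1, ULBP1, C11orf96, GADD45B, DNAJB1 and MT-RNR2. The 17 ATF4 targets became 14 to 20 with 1 library left out.

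The 334 genes of WT cells became 719 with DESeq2, 556 without a filter, 201 with only the libraries of the contrast, 519 with length and GC offsets, 215 without 3 libraries that stood apart, 250 with the number of detected genes as covariate (113 of the 334 lost), 746 with DESeq2 and the 2 libraries left out, 783 at a threshold of 0.05 and 74 at an absolute log2 value of at least 1. With 1 library left out the range was 193 (without OL9-119 replicate 4) to 589 (without DMSO replicate 4), with 201 and 212 without OL9-119 replicates 1 and 3 and 212 without DMSO replicate 3. The single gene of PARP1-KO cells, MT-ND5, was lost with DESeq2 (0 genes, 202 at an unadjusted p under 0.05), filterByExpr (0, 147) and edgeR's legacy option off (0, 242), while 4 genes passed without a filter, without the 3 libraries, and with DESeq2 without the 2. It was 0 to 1 with 1 library left out, being lost without any of PARP1-KO with DMSO replicates 1, 2 and 4 and with OL9-119 replicates 1 to 4. On top of Tpc the 2 genes became 13 with DESeq2, 4 with RLE or with legacy off, 10 without a filter, 6 with only the libraries of the contrast, 5 with the name prefix or the number of detected genes as covariate, 8 with length and GC offsets, 7 at 0.05, and 11 (DESeq2) and 4 (only the libraries of the contrast) without the 2 libraries. The range with 1 library left out was 2 to 4, with 4 without WT with Tpc and OL9-119 replicate 2.

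With the replicate number as a block, 32 genes differed between the genotypes, 367 changed in WT, 1 in PARP1-KO cells and 5 on top of Tpc. Whether same-numbered libraries were paired is not stated in the sources used here. Their deviations correlated at 0.085, -0.289, -0.414 and 0.506 in WT and at -0.103, 0.506, 0.442 and 0.131 in PARP1-KO cells. Some libraries but not all correlated best with their own number, and so few values can neither show nor exclude a pairing. PARP1 in PARP1-KO cells was 4.53% to 5.19% of WT with 1 library left out. The median difference of all genes ran from -0.14 to -0.0029 over the settings, and the causes of these shifts were not tested. Counts below about 10 per library, as for CHAC1 in WT cells with DMSO, limit the precision of fold changes.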
